A study of Mus musculus with 12 samples.

Results

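The genes described are 10 factors and matrix genes of cartilage: Sox9, Sox5, Trps1, Foxc1, Foxc2, Barx2, Acan, Hapln1, Comp and Matn3. Joining every set of overlapping ATAC-seq peaks across the 12 libraries gave 153346 regions. A region was assigned to a gene when the interval of that gene was the nearest protein-coding one within 100 kb. This gave 158 regions for the 10 genes, of 136540 regions with any protein-coding gene in reach. ATAC-seq marks open chromatin, because a transposase inserts sequencing adapters where DNA is accessible. The cells are from mouse and are called MSCLCs in the labels; the title of the series speaks of bone mesenchymal stem cells, of IGF-1 and of EWS::FLI1, a fusion oncogene that drives Ewing sarcoma. By genotype label there were 4 Wt and 4 EF libraries, 2 EF_IGF1 libraries, and a single library each of Wt_IGF1 and EF_IGF1_xeno. The design text names WT, EFPrx1, ha-EFPrx1 and hr-EFPrx1 cells, without saying which label each stands for, and no source used here gives the promoter that drives the fusion, the dose of IGF1 or the meaning of xeno. All EF, EF_IGF1 and EF_IGF1_xeno libraries carry the line name S_220 or S_221, so the 4 EF libraries stand for 2 lines, each on 2 flowcells. The Wt libraries carry the names WT_1, WT_2, BM and S_203. Nothing in the labels says that replicates are separate animals, so any p-value measures only the spread between these libraries.

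Cartilage is laid down by chondrocytes, which arise from mesenchymal cells. The factor Sox9 starts this programme, and Sox5, together with its relative Sox6, works beside it on cartilage enhancers. Among the matrix genes, Acan encodes aggrecan, the large proteoglycan that holds water in cartilage, and Hapln1 the link protein that fastens aggrecan to hyaluronan. Comp and Matn3 encode adaptor proteins that connect collagen fibres with other matrix proteins. Trps1 is a GATA-type repressor of the growth plate, Foxc1 and Foxc2 are forkhead factors of skeletal mesenchyme, and Barx2 is a homeobox factor of limb and muscle development. Open chromatin near a gene is not a measure of its expression.

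The start of a gene is where openness is most often looked for, so the promoters of 3 members are shown: Foxc1, whose start lay in a region of 11 libraries, Matn3, whose start lay in a region of 7, and Acan, whose start lay in none. Each sequence is the 250 bases before the annotated start (RefSeq, GRCm38.p6), all on the plus strand: chr13:31806396-31806645 for Foxc1, chr12:8947679-8947928 for Matn3 and chr7:79052976-79053225 for Acan. Capitals mark matches of the motifs listed after the sequences.
Foxc1: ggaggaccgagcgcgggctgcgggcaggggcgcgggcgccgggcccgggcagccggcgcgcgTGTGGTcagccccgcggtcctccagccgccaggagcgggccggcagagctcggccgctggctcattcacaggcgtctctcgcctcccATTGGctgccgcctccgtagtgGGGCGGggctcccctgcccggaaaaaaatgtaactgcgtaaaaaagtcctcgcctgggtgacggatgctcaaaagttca
Matn3: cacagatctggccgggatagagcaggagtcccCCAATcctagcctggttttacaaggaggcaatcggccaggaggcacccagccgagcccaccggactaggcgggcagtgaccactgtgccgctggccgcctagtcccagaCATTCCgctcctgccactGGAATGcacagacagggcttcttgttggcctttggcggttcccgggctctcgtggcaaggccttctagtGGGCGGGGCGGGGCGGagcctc
Acan: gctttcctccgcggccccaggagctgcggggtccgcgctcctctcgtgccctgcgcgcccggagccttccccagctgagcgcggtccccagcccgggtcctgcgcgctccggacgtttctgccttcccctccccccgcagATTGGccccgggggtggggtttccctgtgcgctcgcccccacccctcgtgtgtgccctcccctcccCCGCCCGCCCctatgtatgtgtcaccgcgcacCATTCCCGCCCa

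The motifs, read on both strands in the 250 bases, were TATAAA (the core promoter box), CCAAT (read by the NFY factor), GGGCGG (read by SP factors), AACAAT (SOX factors), GGAAGGAA (a tandem ETS core), GGAATG (TEAD factors), TGANTCA (AP-1), TGTGGT (RUNX factors) and TGTTTAC (forkhead factors). Matn3 held GGAATG in 2 places, starting 104 and 86 bases before the start, a motif found in 11.6% of the 21045 promoters of protein-coding genes. It also held GGGCGG in 3 overlapping places, and 43.1% of promoters held that motif. Acan held GGGCGG in 3 places, of which 1 overlapped its single GGAATG. Foxc1 held TGTGGT in 1 place (12.2% of promoters), and each of the 3 held CCAAT in 1 place (35.6%). None of the 3 held AACAAT (8.07%) or the tandem GGAAGGAA (2.83%) in this window. A match is a match of letters and not a bound site.

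CpG-rich starts were usually within a region. The 250 bases held 29 CpG pairs at Foxc1, 26 at Acan and 14 at Matn3, against a median of 10 over all promoters. Of the promoters with 20 to 56 CpG pairs, 93.4% overlapped a region of at least 1 library, which leaves Acan in the minority without one. Sequences were also found for Hapln1 and Sox5, which held 2 and 3 CpG pairs, and neither start lay in a region. Of the promoters with 0 to 3 CpG pairs, 15.6% overlapped a region. The listed Sox5 start lies inside its interval, which has other starts. The sequence table matched 5 of the 10 genes.

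The lists held from 7748 peaks, in Wt replicate 1, to 83718, in Wt_IGF1, and the read depth is unknown. Wt replicate 1 called only 1 of the 158 regions, so it adds almost no calls below. Its low counts still enter the Wt means, SDs and tests. Wt replicate 2, of line name WT_2, stood apart by its markers. It called 78.8% of the regions near hematopoietic marker genes, against 6.06% to 31.8% in the other 11 libraries, and 13.9% of those near mesenchymal stromal marker genes, against 30.1% to 55.4% in the others apart from Wt replicate 1 (0%) and EF replicate 2 (16.3%). Col1a2, a collagen gene of the stromal list, had 0 of its 19 regions called in Wt replicate 2 and 12 and 14 in Wt replicates 3 and 4. Not every gene of that list differed so. Pdgfra had 6 of its 17 regions called in each of Wt replicates 2, 3 and 4, and Eng had 4, 5 and 3 of its 9. The lost count in EF against Wt and the order of the Trps1 counts are therefore also given without that library. Group means and tests of EF against Wt include it. EF_IGF1 replicate 1 called few of the regions that set the line in its title apart. Of 6682 regions called in both EF libraries of line S_220 and in neither of line S_221, it called 8.89%, and of the 3586 regions with the opposite pattern 69.0%. Those 3586 regions are not particular to line S_221: Wt replicates 3 and 4 and Wt_IGF1 called 53.2%, 61.9% and 71.6% of them. Whether the library belongs to its named line was not tested. It is called the library labelled S_220 here.

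Most regions of the cartilage genes were seen in few libraries. Of the 158 regions, 66 (41.8%) were called in 1 library, 12 (7.59%) in 10 or more and 0 in all 12. Over all 136540 regions near a gene, the shares were 35.7% for 1 library and 14.0% for 10 or more. The median width was 381.5 bp for the cartilage genes and 417 bp over all, and 111 of the 158 regions lay inside their gene. Gene intervals alone were used, so exons and introns were not told apart.

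The share of the 158 regions called was 0.633% in Wt replicate 1, 32.9% in Wt replicate 2, 30.4% in Wt replicate 3 and 48.1% in Wt replicate 4. It was 29.1%, 15.8%, 28.5% and 32.3% in EF replicates 1 to 4. The groups overlapped, with means of 28.0% ± 19.9 in Wt and 26.4% ± 7.26 in EF (SD, n = 4 each). The share was 44.9% in Wt_IGF1, 27.2% and 36.7% in EF_IGF1 replicates 1 and 2, and 19.6% in EF_IGF1_xeno. In 11 of 12 libraries the share was below that of all regions near a gene in the same library, and Wt replicate 4 was the exception (48.1% against 44.5%). Of a list's other peaks, the median peak of the cartilage genes was stronger than 40.5% (Wt replicate 4) to 53.6% (EF replicate 4), by −log10 p within its own list.

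**Figure D1:**
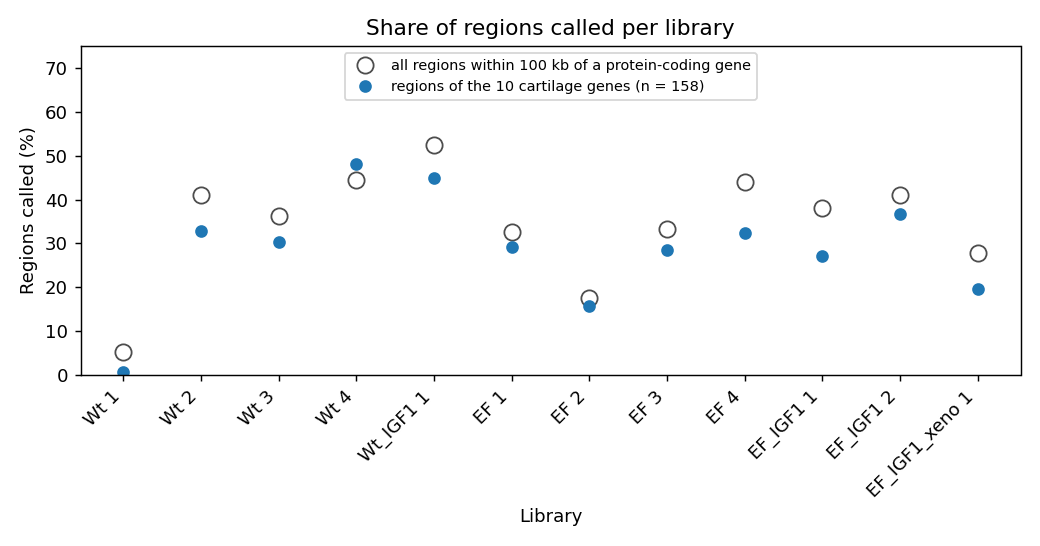
Share of regions called (%, vertical axis) in each of the 12 libraries (horizontal axis), for the 158 regions of the cartilage genes (filled points) and for all 136540 regions within 100 kb of a protein-coding gene (open circles). The filled point lies above the open one in Wt replicate 4 alone.

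**Figure D2:**
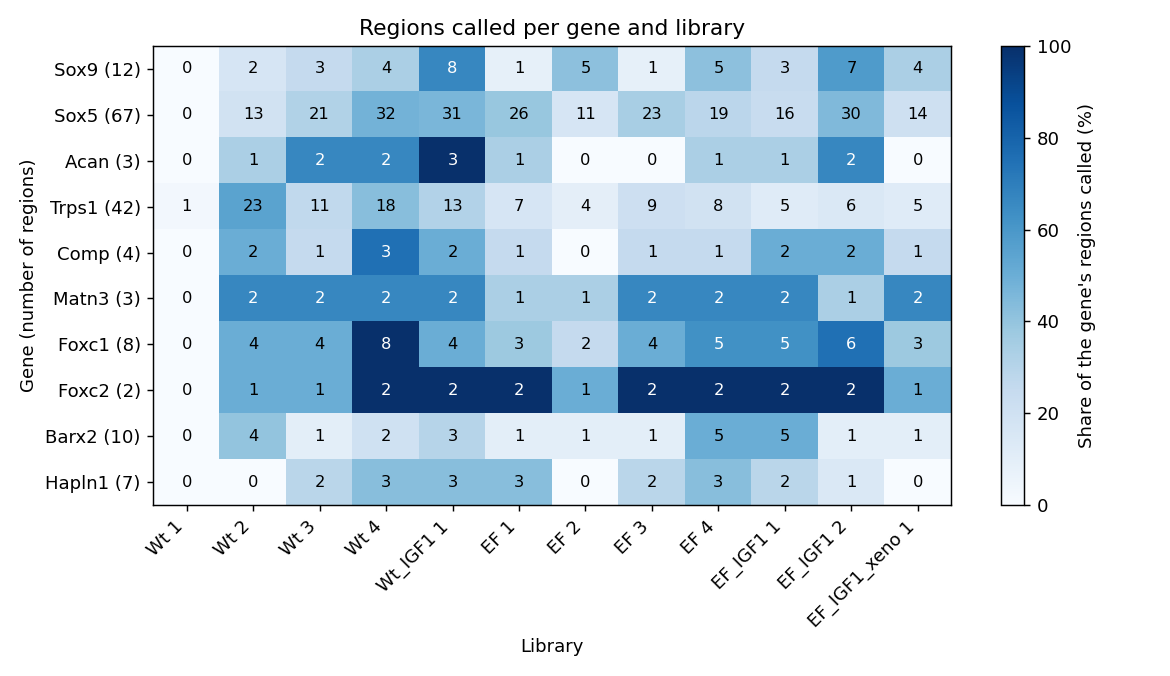
Regions called per gene (rows, with the number of regions in brackets) and library (columns). Numbers are counts and the shade is the share of that gene's regions (%); Trps1 is darkest in Wt replicate 2 with 23 of 42, and Wt replicate 1 has a single call, at Trps1.

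Sox9 (chromosome 11, 112782210 to 112787757) had 12 regions, and only the one at its lower end was found nearly everywhere. That region (chromosome 11, 112781316 to 112783623) was called in every library except Wt replicate 1. Its −log10 p was 9.66, 18.9 and 30.6 in Wt replicates 2 to 4, 33.3 in Wt_IGF1, 32.6, 14.6, 33.4 and 57.7 in EF replicates 1 to 4, 58.1 and 63.2 in EF_IGF1 and 69.0 in EF_IGF1_xeno. These values depend on the depth of each list and are not levels that can be set against each other. The region of Sox9 with the highest value in 7 libraries lay 62203 bp outside the gene (chromosome 11, 112849960 to 112851182). It was called in Wt replicates 3 and 4 (−log10 p 46.0 and 18.2) and Wt_IGF1 (47.1), in EF replicates 2 and 4 (26.3 and 65.2), in EF_IGF1 (73.1 and 103) and in EF_IGF1_xeno (79.1). EF replicates 1 and 3, the libraries of line S_220, did not call it.

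EF replicates 2 and 4 (line S_221) called 5 Sox9 regions each, whereas EF replicates 1 and 3 (line S_220) called 1 each, the one at the gene. Line S_221 lay above line S_220 without overlap in 4.45% of the 9013 genes with 5 or more regions. Wt replicates 1 to 4 called 0, 2, 3 and 4, a range that holds line S_220 and lies below line S_221. EF replicate 2 reached 5 with a list of 27332 peaks, fewer than any other EF library. A region 205 bp outside the gene (chromosome 11, 112787962 to 112788604) was called in both EF_IGF1 libraries and EF_IGF1_xeno and in no other, with −log10 p of 5.40, 7.92 and 10.4. Those peaks were stronger than 0.253%, 6.61% and 16.0% of their lists, so they stood low. Regions of Sox9 farther than 100 kb were not assigned to it, and Sox9 is known for regulatory elements at greater distances.

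**Figure D3:**
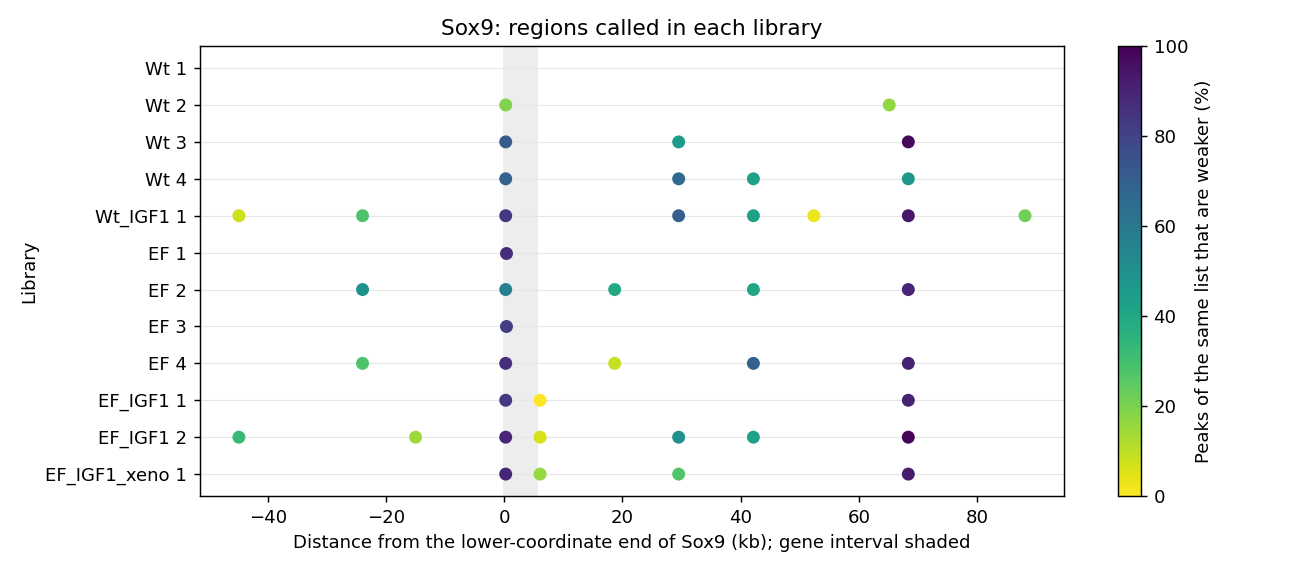
Regions of Sox9 by distance from its lower-coordinate end (kb, horizontal axis; the gene is shaded) in each library (rows). A point is a called region and its colour the share of the same list's peaks that are weaker (%); EF replicates 1 and 3 have the point at the gene and no other.

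Sox5 (chromosome 6, 143828425 to 144782287), a gene of 953863 bp, had 67 regions, 60 of them inside it. Wt replicates 1 to 4 called 0, 13, 21 and 32, EF replicates 1 to 4 called 26, 11, 23 and 19, Wt_IGF1 31, EF_IGF1 16 and 30, and EF_IGF1_xeno 14. The groups overlapped. Within EF, both libraries of line S_220 (26 and 23) lay above those of line S_221 (11 and 19), the reverse of Sox9, as in 12.2% of genes with 5 or more regions. A pair of regions inside the gene gave the highest value of Sox5 in 9 libraries. The first (chromosome 6, 143915956 to 143916887) had −log10 p of 40.4 and 77.2 in Wt replicates 3 and 4 and between 27.0 and 64.5 in the EF libraries. The other (chromosome 6, 144074713 to 144075452) had 42.2 and 88.9 there, and 17.3 to 85.7 in EF. Neither was called in Wt replicate 1 or 2, and each was called in the other 10 libraries.

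A region 8868 bp inside the upper end of Sox5 (chromosome 6, 144772656 to 144773419) was called in all 4 EF libraries (−log10 p 28.1, 14.4, 8.89 and 41.4), both EF_IGF1 libraries and EF_IGF1_xeno, and in Wt only in replicate 4 (11.9); Wt_IGF1 did not call it. Fisher's exact test of 4 of 4 against 1 of 4 calls gave p = 0.143, which does not pass. A region 52153 bp outside Sox5 (chromosome 6, 144834440 to 144834974) was called in Wt replicates 3 and 4 (25.0 and 40.8) and Wt_IGF1 (25.3) and in none of the 7 EF, EF_IGF1 and EF_IGF1_xeno libraries.

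**Figure D4:**
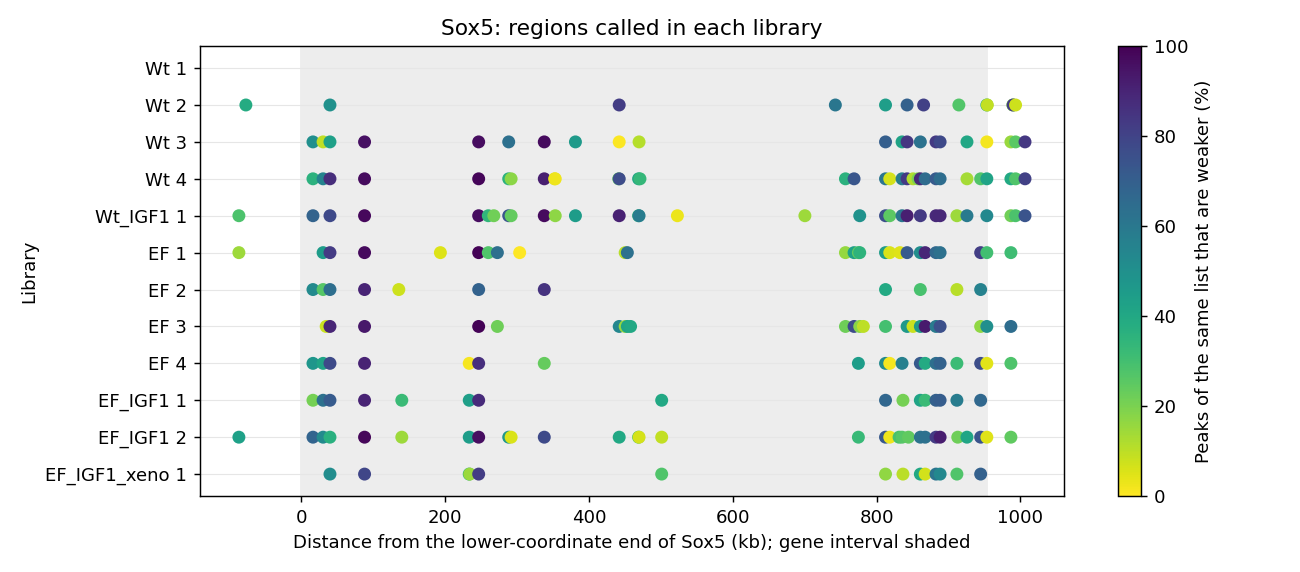
Regions of Sox5 by distance from its lower-coordinate end (kb, horizontal axis; the gene is shaded) in each library (rows), coloured by the share of the same list's peaks that are weaker (%). Points are densest toward the upper-coordinate end of the gene, and Wt replicate 1 has none.

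Trps1 (chromosome 15, 50654757 to 50890631) had 42 regions, 34 of them inside it. Wt replicates 1 to 4 called 1, 23, 11 and 18 and Wt_IGF1 13, while EF replicates 1 to 4 called 7, 4, 9 and 8, EF_IGF1 5 and 6, and EF_IGF1_xeno 5. Every EF, EF_IGF1 and EF_IGF1_xeno library thus lay below every Wt and Wt_IGF1 library except Wt replicate 1, an arrangement seen in 3.37% of the 9013 genes with 5 or more regions; it was looked for after the values were seen. Over all 8 Wt and EF libraries the means were 13.2 ± 9.54 in Wt and 7 ± 2.16 in EF (SD, n = 4 each; exact permutation test, two-sided, p = 0.286). Within flowcell BSF_1013, EF (9 and 8) lay below Wt (11 and 18) for Trps1 and for no other of the 6 members with 5 or more regions, where 12.8% of all such genes did so. No member had EF above Wt without overlap there, against 7.86% of genes.

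Wt replicate 2 had a large part in the Trps1 count. It alone called 11 of the 42 Trps1 regions (26.2%), while 22 of the 158 member regions and 15.3% of all regions near a gene were called in that library only. The hematopoietic markers were called in that same library at 78.8%, as given above, and their part in the Trps1 regions was not tested. The order of the other libraries does not use Wt replicate 2: Wt replicates 3 and 4 stayed above all 4 EF libraries. The share of genes with that order was not counted, and the 3.37% given above does use Wt replicate 2. The single Trps1 region of Wt replicate 1 (chromosome 15, 50840412 to 50840922) was shared with Wt replicate 2 and no other library (−log10 p 10.9 and 43.3).

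The most widely shared Trps1 regions were open in both genotypes. The one with the highest value of Trps1 in 8 libraries, 48915 bp inside the lower end (chromosome 15, 50703672 to 50704445), was called in every library but Wt replicate 1, with −log10 p of 43.0, 45.6 and 96.2 in Wt replicates 2 to 4, 49.8, 42.6, 55.1 and 62.0 in EF, 65.6 in Wt_IGF1, 28.5 and 39.0 in EF_IGF1 and 17.5 in EF_IGF1_xeno. A region 857 bp inside the upper end (chromosome 15, 50888333 to 50889774) was called in 10 libraries. A region inside the gene (chromosome 15, 50779581 to 50780109) was called in Wt replicates 2, 3 and 4 (17.7, 23.7 and 21.9) and Wt_IGF1 (36.5) only. Another (chromosome 15, 50870117 to 50870546) showed the same calls, with 26.6, 12.8, 9.16 and 18.1. These were the regions of Trps1 that met the rule for loss in EF, and none of the 7 EF, EF_IGF1 and EF_IGF1_xeno libraries called either.

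**Figure D5:**
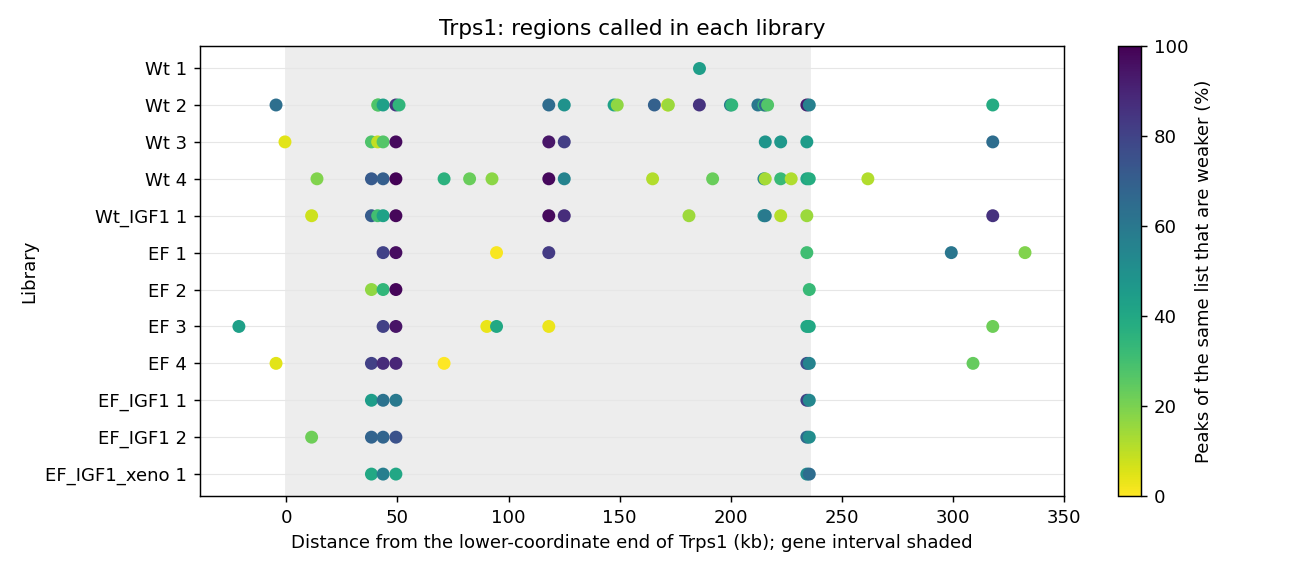
Regions of Trps1 by distance from its lower-coordinate end (kb, horizontal axis; the gene is shaded) in each library (rows), coloured by the share of the same list's peaks that are weaker (%). Points are densest in Wt replicate 2, with 23, and fewest in Wt replicate 1 and EF replicate 2.

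Foxc1 (chromosome 13, 31806646 to 31810635) had 8 regions, called 0, 4, 4 and 8 times in Wt, 3, 2, 4 and 5 times in EF, 4 in Wt_IGF1, 5 and 6 in EF_IGF1 and 3 in EF_IGF1_xeno. The groups overlapped. The region at its start (chromosome 13, 31806156 to 31806854), which holds the sequence printed above, had −log10 p of 18.8 to 34.3 in Wt replicates 2 to 4, 45.8 in Wt_IGF1, 22.0 to 39.9 in EF and 53.2 to 68.5 in EF_IGF1 and EF_IGF1_xeno. Ranked within their own lists, these peaks were stronger than 52.2% to 92.8% in Wt replicates 2 to 4 and 92.9% in Wt_IGF1. The ranks were 72.2% to 84.5% in EF and 81.3% to 91.6% in EF_IGF1 and EF_IGF1_xeno. Foxc2 (chromosome 8, 121116171 to 121118895) had 2 regions, and the one at its lower end (chromosome 8, 121116003 to 121117711) was called in all libraries but Wt replicates 1 and 2. The other lay 2537 bp outside the gene and was called in 8 libraries.

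Barx2 (chromosome 9, 31846044 to 31913285) had 10 regions, and no region lay within 1 kb of either end of it. EF replicate 4 called 5 and the other EF libraries 1 each, Wt replicates 1 to 4 called 0, 4, 1 and 2, Wt_IGF1 3, the EF_IGF1 libraries 5 and 1, and EF_IGF1_xeno 1. Its one widely shared region lay 12498 bp outside the gene (chromosome 9, 31925783 to 31926293). That region was called in 9 libraries, with −log10 p of 36.9, 32.6 and 35.1 in Wt replicates 2 to 4 and 14.6, 21.9 and 32.1 in EF replicates 1, 3 and 4.

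The matrix genes had few regions each. Acan (chromosome 7, 79053226 to 79115099) had 3, and none of them at its start; the widest-shared one lay 27498 bp inside the gene (chromosome 7, 79080724 to 79081206). It was called in Wt replicates 2, 3 and 4 (−log10 p 6.39, 17.5 and 15.5), Wt_IGF1 (13.3), EF replicates 1 and 4 (9.99 and 23.9) and both EF_IGF1 libraries (17.5 and 22.9). A region 62539 bp outside Acan (chromosome 7, 78990238 to 78990687) was called in Wt replicates 3 and 4 (32.3 and 28.6), Wt_IGF1 (41.1) and EF_IGF1 replicate 2 (28.6), and in no EF library.

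Matn3 (chromosome 12, 8947929 to 8972028) had 3 regions, all inside or across its interval. The region at its start (chromosome 12, 8947641 to 8948243), around the sequence printed above, was called in Wt replicates 2, 3 and 4 (14.0, 22.8 and 39.8), Wt_IGF1 (32.2), EF replicate 4 (21.0), EF_IGF1 replicate 1 (26.6) and EF_IGF1_xeno (11.9). EF replicates 1, 2 and 3 did not call it, and 3 of 4 against 1 of 4 calls did not pass Fisher's exact test (p = 0.486). A region 1764 bp inside the other end (chromosome 12, 8969704 to 8970264) was called in every library except Wt replicate 1. It had −log10 p of 7.35, 23.7 and 59.1 in Wt, 42.2 in Wt_IGF1, 24.2, 11.9, 21.9 and 75.1 in EF and 80.1 to 101 in EF_IGF1 and EF_IGF1_xeno. Ranked within their own lists, these peaks were stronger than 6.91%, 81.8% and 92.1% in Wt and 91.1% in Wt_IGF1. The ranks were 41.6% to 94.0% in EF and 94.1% to 97.0% in EF_IGF1 and EF_IGF1_xeno.

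Comp (chromosome 8, 70373548 to 70382066) had 4 regions. The most shared lay 999 bp outside its lower end (chromosome 8, 70371668 to 70372549) and was called in Wt replicates 3 and 4 (27.5 and 46.9), Wt_IGF1 (23.1), EF replicate 4 (50.8), both EF_IGF1 libraries (56.4 and 56.3) and EF_IGF1_xeno (33.3). Both EF libraries of line S_220 lacked it, as did EF replicate 2 of line S_221. Hapln1 (chromosome 13, 89540529 to 89611832) had 7 regions, with 0, 0, 2 and 3 called in Wt, 3, 0, 2 and 3 in EF, 3 in Wt_IGF1, 2 and 1 in EF_IGF1 and 0 in EF_IGF1_xeno. None of its regions was called in more than 5 libraries.

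The comparison of EF with Wt asks where openness differs with the EF genotype. Gain meant calls in 3 or 4 of the EF libraries and in none of the Wt libraries, and loss the mirror case. Of the 158 regions, 1 was gained, at Hapln1, where 1.15% of all regions near a gene were, and 3 were lost, 2 at Trps1 and 1 at Sox5, against 0.978% of all. The gained region lay 95206 bp outside Hapln1 (chromosome 13, 89444655 to 89445323) and was called in EF replicates 1, 3 and 4 (−log10 p 53.3, 34.9 and 63.5) and EF_IGF1 replicate 1 (13.0). The lost region of Sox5 lay 39084 bp outside the gene (chromosome 6, 144821371 to 144821795), with 7.66, 9.20 and 11.9 in Wt replicates 2 to 4 and also called in Wt_IGF1. The members' shares were 0.633% gained and 1.90% lost, from counts too small to set apart from the background.

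No region passed a test over all regions. With 4 against 4 libraries, a region or gene could pass adjustment only if most of them reached the smallest possible p. By Fisher's exact test on calls, 344 of 153346 regions and 0 of the 158 had an unadjusted p under 0.05, and 0 passed after Benjamini-Hochberg adjustment (p = 0.0286 is the smallest that 4 against 4 allows). Counts per gene gave 51 of 18218 genes and 0 of the 10 members with an unadjusted p under 0.05 by the exact permutation test, and 0 after adjustment. The counts also rested on single libraries: the gained count was 0 without EF replicate 1, 3 or 4 and 4 without Wt replicate 4, and the lost count was 0 without Wt replicate 2, 3 or 4, since all 3 Wt libraries left must then be called, and 4 without EF replicate 3 or 4.

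Within flowcell BSF_1013, with 2 EF and 2 Wt libraries, 1 member region was gained (background 1.89%) and 12 were lost (7.59%, background 4.4%). The lost ones were 4 at Sox5, 3 at Trps1, 2 at Hapln1 and 1 each at Sox9, Acan and Foxc1. That comparison leaves out Wt replicates 1 and 2 and EF replicates 1 and 2, all of flowcell BSF_0654. Wt replicates 1 and 2 differ from Wt replicates 3 and 4 in line name too, so the flowcell and the line of the Wt cells cannot be told apart. With the calls of all 4 EF libraries, 11 regions were called in Wt replicates 3 and 4 and in no EF library. The exception was the Foxc1 region 41660 bp outside the gene, which EF replicate 1 called. That rule was added after the data were seen, and its share over all regions was not counted. The 2 Hapln1 regions lay 804 bp outside the gene (chromosome 13, 89539155 to 89539725) and 2541 bp inside its lower end (chromosome 13, 89543070 to 89543348).

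The comparison of EF_IGF1 with EF, 2 libraries each within flowcell BSF_1013, asks what goes with IGF1 in EF cells. An exact permutation test (two-sided) of 2 against 2 counts per gene cannot go below p = 0.333, or 0.5 when paired by line name, so no gene could pass. Regions called in both EF_IGF1 and in neither EF library numbered 5 of 158, at Sox5 (2), Sox9, Comp and Hapln1 (1 each), against 2.66% of all. The reverse held for 1 region, 18722 bp outside Hapln1 (chromosome 13, 89521416 to 89521807), against 2.07% of all. The Sox9 region and 1 of the Sox5 regions (chromosome 6, 144329344 to 144329749; −log10 p 17.2, 8.21 and 13.0) were called in both EF_IGF1 libraries and EF_IGF1_xeno and nowhere else, a pattern of 0.69% of all regions. The Comp region (chromosome 8, 70364009 to 70364555) was also called in Wt replicate 4, and the Hapln1 region in Wt replicates 3 and 4 and Wt_IGF1. Leaving out a library moved these counts: gained 5 and lost 10 without EF replicate 3, 13 and 19 without EF replicate 4, 20 and 2 without EF_IGF1 replicate 1, and 9 and 3 without EF_IGF1 replicate 2.

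Per line name, the number of called regions with IGF1 less that without it was 2 in each EF line for Sox9 and 5 in Wt line BM. Trps1 had -4 in line S_220, -2 in line S_221 and 2 in BM. Sox5 had -7, 11 and 10, and Barx2 4, -4 and 2, so the EF lines moved in opposite directions for these. Line S_220 here rests on the library labelled S_220, which called few of the regions that set that line apart. Counts of Trps1 in EF_IGF1 (5 and 6) lay below those in EF (9 and 8), as in 10% of genes with 5 or more regions. No member with 5 or more regions lay above without overlap (9.97% of genes), or above all 4 EF libraries (9.11%).

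The remaining comparisons have 1 library in a group and no replicate check. Wt_IGF1 called 16 of 158 regions that neither Wt library of its flowcell called (10.1%, background 10.3%), 7 of them at Sox5 and 4 at Sox9, and missed 1 that both called (background 0.639%). EF_IGF1_xeno called 1 region that neither EF_IGF1 library called (background 0.784%) and missed 10 that both called (background 7.05%), at 7 genes, including the Acan region inside the gene, the Barx2 region shared by 9 libraries and 2 at Foxc1. Those shares lie near the background, and EF_IGF1_xeno had the shorter list (43416 peaks). With each list limited to its top 20000 peaks, both comparisons gave 2 regions in each direction, so the excess of gains in Wt_IGF1 and of losses in EF_IGF1_xeno was not seen there.

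Between the EF lines, 10 regions were called in both S_220 libraries and neither S_221 library (background 4.89%), 7 of them at Sox5, 2 at Trps1 and 1 at Comp. The reverse held for 9 (background 2.63%), at Sox9 (4), Sox5 (3), Trps1 (1) and Barx2 (1). EF_IGF1 replicate 1, labelled S_220, called 0 of the 10 and 4 of the 9, EF_IGF1 replicate 2 called 0 and 5, and EF_IGF1_xeno 0 and 3.

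Other genes of cartilage were counted from a list of 33, of which 31 had a region and 344 regions in all. In EF against Wt, 1 of these regions was gained, at the collagen gene Col11a1, and 3 were lost, 1 each at Sox6, at Wwp2, a ubiquitin ligase gene, and at Chst11, a chondroitin sulfotransferase. These were 0.291% and 0.872% of the 344, against 1.15% and 0.978% of all regions near a gene. Within BSF_1013, 3 were gained (0.872%, background 1.89%) and 16 lost (4.65%, background 4.4%). With IGF1 in EF, 12 were gained (3.49%, background 2.66%), 4 of them at Sox6, and 12 lost (3.49%, background 2.07%). None of the 31 genes passed the exact permutation test after adjustment over all genes, and none could unless most genes reached its smallest p.

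The genes whose calls ran most alike over the 12 libraries were found among genes with 5 or more regions, by Pearson's correlation of the share of a gene's regions called less the share of all regions in that library. For Trps1 they included Gpr141 (0.98) and Cxcr5 (0.95), for Sox5 Enpp2 (0.94), for Hapln1 Fat4 (0.93) and Sema3d (0.92), and for Sox9 Zfp365 (0.90) and Lhx6 (0.88). The highest were 0.85 for Foxc1 (Zbtb40) and 0.88 for Barx2 (Il18rap). These are descriptions over 12 libraries that differ in list length and of which several share a line name. The genes alike were picked for their high values. Trps1 had its most calls in Wt replicate 2, and the part of that library in its correlations was not tested.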

How the data were processed

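The peak lists of 12 ATAC-seq libraries were used, and the genotype labels gave the groups. Per the submitters' processing notes the caller was MACS2 and the build GRCm38.p3; which aligner, filters and options were used is not stated. Reads were 50 bp, per the labels' protocols. Each deposited list is of 1 library. For each peak the authors give a fold (ratio), −log10 p, −log10 q and a score (10 times the −log10 q). These are the authors' own values and served to rank and filter peaks inside 1 list; the deposited fold and score were not used.

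Peaks on chromosomes 1 to 19 and X were merged where they overlapped by at least 1 bp (Python 3.11.15, pandas 2.3.3, scipy 1.17.1). Any overlapping peak made a call. RefSeq genes of GRCm38.p6 (21631 protein-coding) gave gene intervals without strand. Calls per region were tested by Fisher's exact test and counts per gene by exact permutation (4 EF against 4 Wt), with Benjamini-Hochberg adjustment over all regions or genes; the code was tested on simulated data. All 10 members were named, with the region at a gene end, the most shared region and regions gained or lost, and up to 3 genes alike (unnamed gene models left out; 1 gene alike is not reported here). The members, lists and comparisons were chosen with earlier results of these data known.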

Additional observations from a re-analysis of the deposited data

Results flagged for a closer look

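In groups of 4 libraries, 22 sets of values were checked for a library far from the rest, of which chance flags about 1 in 20. Counts this small flag easily, since 3 equal values and a different one give a gap of the whole range (ratio 1). This was so for Matn3 in Wt (0 in replicate 1, 2 in the others), Comp in EF (0 in replicate 2, 1 in the others), Foxc2 in EF (1 in replicate 2, 2 in the others) and Barx2 in EF (5 in replicate 4, 1 in the others). The low values belong to the libraries with the shortest lists of their groups, with 7748 peaks in Wt replicate 1 and 27332 in EF replicate 2, and the part of list length was not tested.

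The number of Trps1 regions called rose by 2 with IGF1 in Wt line BM (from 11 to 13) and fell by 4 and by 2 in the EF lines S_220 and S_221 (from 9 to 5 and from 8 to 6). The difference between the genotypes was not tested, and the Wt side has 1 pair of libraries.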

How the results depend on the processing

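With stricter peaks (−log10 q of 5 or more), every count of gained or lost cartilage regions stayed within 1.5 times the main one, and 150 of the 158 regions remained in number. Windows of 250 bp around summits moved 1 count, regions gained in EF_IGF1_xeno against EF_IGF1 (2 against 1). The top 20000 peaks of each list, which left 49 regions, gave 4 gained and 0 lost in EF against Wt. They gave 2 in each direction for EF_IGF1 against EF, Wt_IGF1 against Wt and EF_IGF1_xeno against EF_IGF1. Here fewer peaks enter, except in Wt replicate 1, whose list of 7748 peaks is shorter than the limit. Assigning genes within 50 kb gave 0 gained in EF against Wt, as the Hapln1 region lies farther away. Asking peaks to cover 50% of a region gave 3 gained and 2 lost in EF_IGF1 against EF.

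Asking for 4 of 4 against 0 of 4 gave 0 and 0 in EF against Wt. Within flowcell BSF_1013 the lost count was 12, and Wt replicates 3 and 4 against all EF libraries (added after the data were seen) gave 11. Line S_221 alone, without replicates, gave 21 gained and 14 lost with IGF1. The share over all regions was not counted for that rule or for the one that gave 11. Leaving out a library at a time gave 0 to 4 gained and 0 to 4 lost in EF against Wt, and 5 to 20 gained and 2 to 19 lost in EF_IGF1 against EF. In no alternative on peaks or regions did a member pass the exact permutation test per gene after adjustment. A member could pass it only if most genes reached the smallest possible p, so this is no check of the processing. Replicate numbers here only name libraries. Permuting within flowcells was added after the data were seen, and its smallest possible p was 0.0556, so no gene could pass. It gave members an exact p of 0.333 to 1 and 0 adjusted calls. Pairing EF_IGF1 with EF by line name is the same as asking for the change in both lines, the rule used, and its exact test per gene gave members a p of 0.5 to 1. Of 50 region counts of single members, 41 stayed within 1.5 times and 9 moved.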

Other observations

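Among the other cartilage genes, Chst11 (chosen after its values were seen), a chondroitin sulfotransferase, split the EF lines within its 42 regions. EF replicates 1 and 3 (line S_220) called 5 and 4, EF replicates 2 and 4 (line S_221) 11 and 18, and Wt replicates 2 to 4 called 17, 18 and 19. Line S_221 lay above line S_220 in this way in 4.45% of genes with 5 or more regions. EF_IGF1 replicate 1 called 4, EF_IGF1 replicate 2 called 19 and EF_IGF1_xeno, also of line name S_221, called 8. At this gene the library labelled S_220 lay with its line name, unlike at the regions that separate the lines over all genes. EF_IGF1_xeno lay below both EF libraries of its line name. Whether these counts follow the line was not tested.

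Runx2, the factor of osteoblasts and of chondrocyte maturation, had 62 regions called 1, 25, 22 and 27 times in Wt, 23, 13, 23 and 33 times in EF, 30 in Wt_IGF1, 24 and 32 in EF_IGF1 and 18 in EF_IGF1_xeno, with overlap of the groups. Sox6 had 20 regions, called 0, 6, 3 and 9 times in Wt and 1, 0, 2 and 3 times in EF. The counts were 8 in Wt_IGF1, 8 and 6 in EF_IGF1 and 4 in EF_IGF1_xeno. Both EF_IGF1 counts of Sox6 lay above all 4 EF counts, as in 9.11% of genes with 5 or more regions; the gene was picked from 31 after its values were seen, and this was not tested.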
